A study of Mus musculus with 3 samples.

Results

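The cells described here were keratinocytes of mouse wound tissue that carried transcripts of Tbx1 or Krt75, and 1256 of 26953 cells qualified. They were picked from single-cell counts of unique molecular identifiers (UMIs, 1 per captured transcript). A cell needed at least 250 genes, at most 10% mitochondrial UMIs, at least 2 UMIs of Tbx1 and Krt75 together and at least 1 UMI of Krt14, Krt5 and Krt17 together. Cells with more than 2 UMIs of Krt35, more than 4 of Krt71, more than 1 of Krt79 and Gata6 together, or more than 2 of Krt81, Krt83 and Krt86 together were left out, since those genes mark hair matrix, inner root sheath, upper follicle and hair shaft. Measured values therefore chose the cells, and the genes of the rule are described below without a test. The word "members" stands for these 1256 cells, "Tbx1-only" for members without a Krt75 UMI and "Krt75-only" for members without a Tbx1 UMI.

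The outer root sheath is the outermost epithelial layer of the hair follicle and runs on from the basal layer of the epidermis. It holds the follicle stem cells of the bulge, and its cells leave the follicle to help re-cover a wound. Tbx1 encodes a T-box transcription factor of follicle stem cells and outer sheath. Krt75 encodes a keratin of the companion layer, the single sheet between outer and inner root sheath, and of the medulla, the core of the hair shaft.

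All 3 groups were female C57BL/6J mice, wounded at postnatal day 50 on the back with a 5 mm full-thickness excision held open by a splint. Wounds were taken on day 5 with a 2 mm margin of surrounding skin. The untreated group, which the sample title calls Sham, had the wound alone. The GelMA group received 20 µL of gelatin methacryloyl hydrogel set by ultraviolet light for 1 min, and the AN-GelMA group the same gel carrying apoptotic neutrophils. The deposited files of the AN-GelMA library also carry the word heat, which the labels do not explain. Each group was 1 library of fixed, dissociated cells read with 10x Flex probe pairs, and the number of mice behind a library is not stated. With 1 library per group no difference between groups could be tested, so treatment cannot be told apart from the animals, the biopsy, the wound margin or the library. Intervals in brackets are 95% counting intervals (exact binomial or Poisson), which cover counting error only.

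The libraries held 6073, 11449 and 9648 barcodes in the order untreated, GelMA, AN-GelMA, and 34, 147 and 36 of them failed the limits on genes or mitochondrial UMIs. Median UMIs per cell were 1124, 1488 and 1134, so GelMA was the deepest. Hair-forming cells (over the limit for Krt35, for Krt71 or for the sum of Krt81, Krt83 and Krt86) numbered 63, 1534 and 6. How this spread relates to the results below was not tested. Barcode sequences shared between libraries numbered 107 for untreated and GelMA, 135 for GelMA and AN-GelMA and 94 for untreated and AN-GelMA. Among the members, 4, 18 and 7 carried a shared barcode, and 1 barcode was a member in 2 libraries.

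Members made up 1.95% (1.62 to 2.34; 118 of 6039) of untreated cells, 8.85% (8.33 to 9.39; 1000 of 11302) of GelMA cells and 1.44% (1.21 to 1.69; 138 of 9612) of AN-GelMA cells. GelMA stood above the other libraries. As a share of cells with at least 1 UMI of Krt14, Krt5 or Krt17 the values read 5.25% (4.37 to 6.26) in untreated, 15.7% (14.9 to 16.7) in GelMA and 3.47% (2.93 to 4.09) in AN-GelMA. When each cell was thinned to 1000 UMIs before the rule was applied, the shares of all cells were 1.19%, 6.36% and 0.861%. A share of cells reports the makeup of the dissociated sample and of the biopsy, which may hold more or fewer follicles, and not a number of cells per wound.

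**Figure D1:**
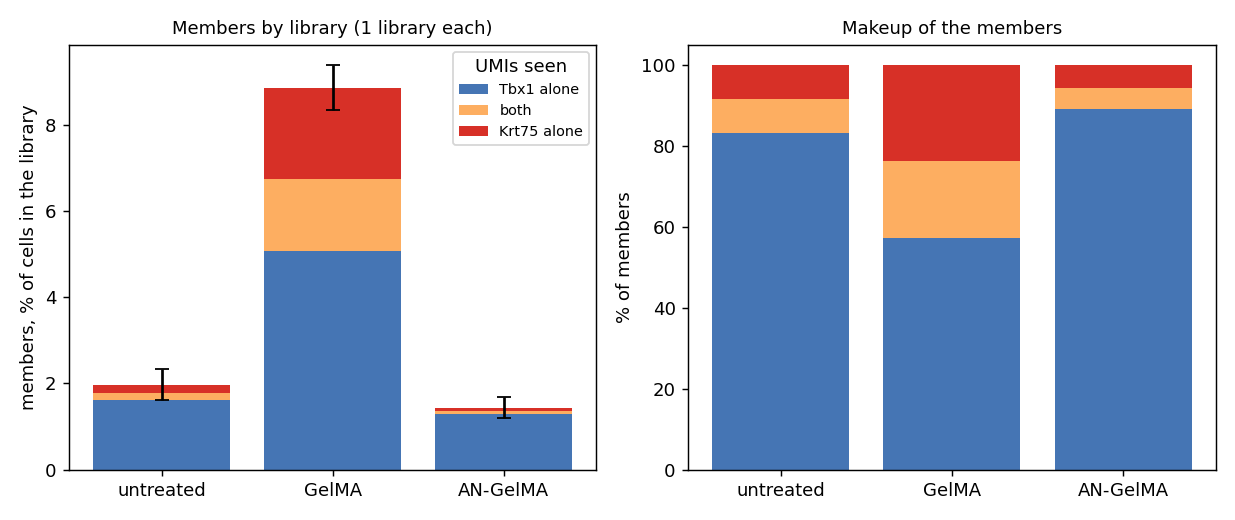
Left, members as a percentage of all cells that passed the limits in each library, stacked by Tbx1-only cells, cells with both genes and Krt75-only cells, with the 95% binomial interval of the total. Right, the makeup of the members: Tbx1-only cells were 83.1%, 57.2% and 89.1% of members in untreated, GelMA and AN-GelMA.

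Most members were found through Tbx1. A Tbx1 UMI was present in 91.5%, 76.2% and 94.2% of members and a Krt75 UMI in 16.9%, 42.8% and 10.9%, again in the order untreated, GelMA, AN-GelMA. Tbx1-only cells numbered 98, 572 and 123, cells with both genes 10, 190 and 7, and Krt75-only cells 10, 238 and 8. High Krt75 counts were nearly confined to the GelMA library: 4, 189 and 0 members had 10 or more Krt75 UMIs, and the highest count in 1 cell was 30, 127 and 8. Tbx1 counts stayed low in all 3 libraries, with a maximum of 11, 15 and 13 UMIs. Summed over members, Tbx1 stood at 1560, 1249 and 1971 CPM (UMIs of a gene per 1000000 UMIs of the summed cells) and Krt75 at 639, 3570 and 201 CPM. Fibroblast type cells (at least 5 UMIs of fibroblast markers and no UMI of the 3 basal keratins), which should lack both genes, had Tbx1 at 27.1, 78.0 and 12.5 CPM, with a Tbx1 UMI in 2.37%, 6.96% and 0.799% of cells and a Krt75 UMI in 0.547%, 4.11% and 0.107%, at median depths of 1094, 930.5 and 1058 UMIs beside 1240, 1606 and 1362 in the members.

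Many members sat at the limit of the rule: 46, 330 and 58 had a sum of exactly 2 UMIs, and 139, 705 and 209 further cells met every other condition with a sum of 1. Lhx2, a transcription factor of follicle stem cells that the rule did not use, was higher at each of the first 3 steps of the sum in each library, which is given as a description. It stood at 95.5, 114 and 85.3 CPM in cells with 1 UMI, at 197, 193 and 449 CPM at 2 UMIs and at 436, 254 and 890 CPM at 3 or more. Among these, the 212 GelMA cells with 10 or more UMIs had Lhx2 at 136 CPM (106 to 173), below the 2 UMI step, while the untreated and AN-GelMA libraries had 6 and 5 such cells. Of these 3 steps, the epidermal keratin Krt1 was lowest at 3 or more UMIs in each library, at 3587, 999.6 and 2539 CPM. It stood at 8304, 5248 and 7596 CPM at 1 UMI and at 8467, 5430 and 5249 CPM at 2 UMIs. Members at 2 UMIs were thus below the 1 UMI step for Krt1 in AN-GelMA only.

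The members carried genes of the outer sheath and bulge that the rule did not use, and those named in this paragraph were lower in other keratinocytes. Other keratinocytes were cells with at least 5 UMIs of Krt14, Krt5 and Krt17, no Tbx1 or Krt75 UMI and the same upper limits (628, 1241 and 1148 cells). Lhx2 stood at 342 CPM (269 to 429), 234 CPM (213 to 256) and 717 CPM (614 to 833) in members of untreated, GelMA and AN-GelMA, beside 7.29, 41.4 and 4.92 CPM in other keratinocytes and 9.97, 36.0 and 6.01 CPM in fibroblast type cells. Lgr5, a receptor for R-spondins that marks cycling follicle stem cells, stood at 45.6, 49.2 and 67.1 CPM beside 3.65, 3.04 and 0.819 CPM. Sfrp1, a secreted Wnt inhibitor of the bulge, stood at 169, 136 and 419 CPM beside 33.5, 66.1 and 50.8 CPM. Each of these 3 genes was higher in members than in other keratinocytes of the same library, in every library. Krt15, a keratin of bulge and basal cells, differed less, with 534, 231 and 910 CPM beside 311, 174 and 259 CPM. Levels are compared between cells and not between genes, since the probes differ in number and efficiency.

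**Figure D2:**
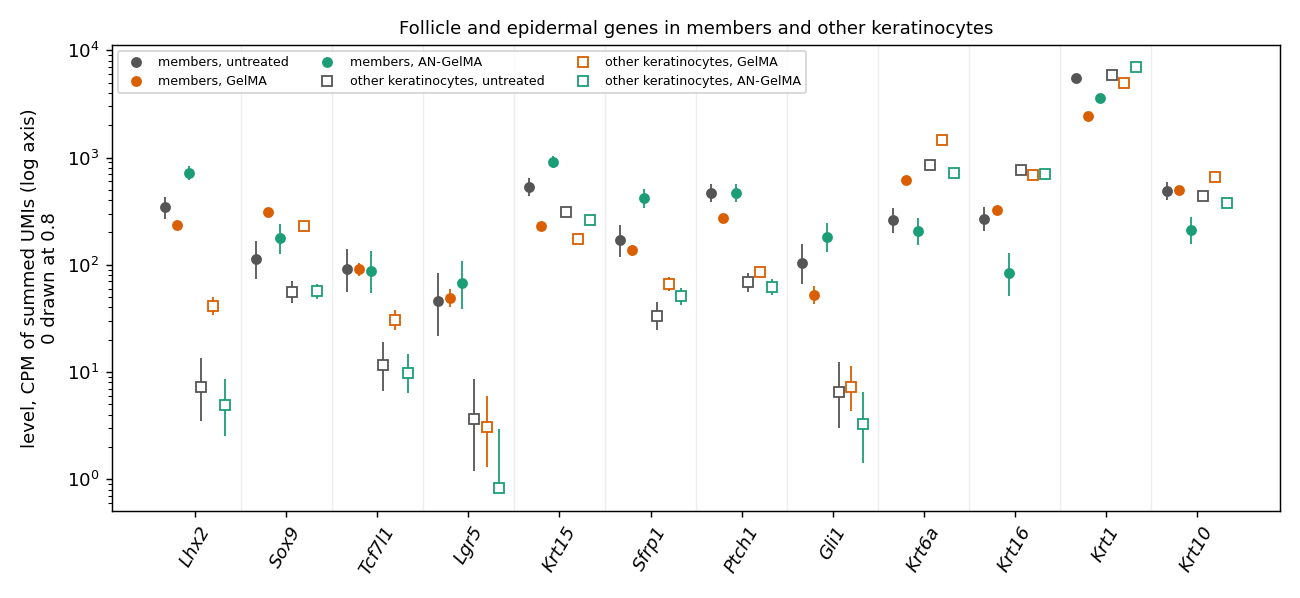
CPM (log axis) of follicle, Hedgehog and epidermal genes in members (filled) and other keratinocytes (open) of each library, with 95% counting intervals and values of 0 drawn at 0.8. Lhx2, Lgr5, Ptch1 and Gli1 lay higher in members in all 3 libraries, and Krt6a and Krt16 lay lower.

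The genes that set members apart from other keratinocytes most steadily were named by the lowest of the 3 library ratios, over genes with at least 5 UMIs in the members of each library. They were led by Il31ra (a receptor subunit for interleukin 31), Lgr5, Adamts20 (a secreted metalloprotease), Sardh, Diras2, Crispld1, Edn2 (endothelin 2), Fads1, Ism1 and Gli1. Il31ra was higher than in other keratinocytes by 4.38, 5.60 and 7.48 on the log2 scale, but its GelMA level of 18.4 CPM was under the 28.5 CPM of fibroblast type cells there. Fads1, at 31.8 and 21.0 CPM in GelMA and AN-GelMA members, was also under the 36.0 and 26.6 CPM of fibroblast type cells. Several of these genes rest on few UMIs in untreated and AN-GelMA members, with 6 and 13 for Sardh, 9 and 8 for Diras2, 5 and 10 for Edn2 and 7 and 5 for Fads1. Adamts20 stood at 141, 246 and 33.5 CPM beside 2.19, 22.4 and 1.64 CPM. Because measured values chose the members, these ratios describe the cells and support nothing further.

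By fixed gene lists, follicle stem cell and Hedgehog genes were higher in members than in other keratinocytes, and keratins of injured and differentiating epidermis were lower. A gene counted as higher or lower when the CPM ratio was at least 1.5 in that direction, among genes with at least 10 UMIs expected in the smaller sum. Over all genes kept, 15.5% were higher and 16.5% lower in untreated members, 17.3% and 10.7% in GelMA and 18.5% and 16.2% in AN-GelMA. Of the outer sheath and stem cell transcription factors, 8 of 11 were higher and none lower in untreated (median log2 ratio 0.91), GelMA had 6 higher and 1 lower of 13 (0.42), and AN-GelMA had 9 and 0 of 11 (1.56). Of the secreted and surface genes of bulge and outer sheath, 4 of 8, 8 of 13 and 7 of 8 were higher and 1, 3 and 0 lower. Their summed level was 1560, 1200 and 2302 CPM in members, beside 846, 895 and 786 CPM in other keratinocytes. Fibroblast type cells had 1655, 1891 and 1594 CPM, so the sum did not set members of untreated and GelMA apart from fibroblasts. Vdr, the vitamin D receptor needed for hair cycling, stood at 867, 925 and 1283 CPM beside 462, 355 and 502 CPM. Sox9, which specifies the outer sheath, stood at 114, 310 and 176 CPM beside 56.1, 232 and 56.5 CPM, the smallest gap being in GelMA.

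Genes of the Hedgehog pathway, in which secreted Hedgehog proteins bind Ptch receptors and act through the Gli factors, were higher for 6 of 8, 6 of 9 and 5 of 8 genes kept and lower for 0, 1 and 0. Ptch1, a receptor that is also a target of the pathway, stood at 470, 272 and 470 CPM beside 69.3, 86.2 and 62.3 CPM in other keratinocytes. Gli1, the other common target, stood at 105, 52.2 and 180 CPM beside 6.56, 7.22 and 3.28 CPM. In GelMA the fibroblast type cells had Gli1 at 58.5 CPM, above the 52.2 CPM of the members, so Gli1 does not set members apart from fibroblasts there.

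Cell division genes were higher in members of untreated and AN-GelMA, and in GelMA their count over all members was near that of all genes. Of 19 mitosis genes, 15 of 15 kept were higher than in other keratinocytes in untreated (median 1.34), GelMA had 4 of 18 (0.47), and AN-GelMA had 18 of 18 (1.59). Among the Tbx1-only cells of GelMA 15 of 18 were higher (0.83). Their summed level was 2322, 1308 and 2969 CPM in members, 934, 912 and 1004 CPM in other keratinocytes and 1798, 1378 and 1369 CPM in fibroblast type cells. DNA replication genes were higher for 9 of 11, 1 of 14 and 9 of 10 in all members, and for 5 of 14 in the Tbx1-only cells of GelMA.

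Keratins of the companion layer and of injured epidermis other than Krt75 were lower in members than in other keratinocytes, for 4 of 4, 3 of 4 and 4 of 4 genes kept. Krt6a stood at 260, 620 and 205 CPM beside 847, 1466 and 714 CPM, and Krt16 at 269, 324 and 83.9 CPM beside 759, 686 and 706 CPM. These keratins are made by the companion layer and by epidermis at a wound edge. Other keratinocytes needed at least 5 UMIs of Krt14, Krt5 and Krt17 together, and members at least 1. The unequal minimum may favour lower keratin values in members, and its part in this difference was not tested. Suprabasal genes were lower for 9 of 12, 11 of 13 and 10 of 12 genes kept and higher for 0, 1 and 0. Genes of the keratinocyte injury response, such as matrix proteases and integrins of migrating cells, were lower for 5 of 9, 5 of 12 and 7 of 8 and higher for 1, 3 and 1, with a GelMA median of -0.40. Glycolysis and hypoxia genes were lower for 5 of 12, 12 of 17 and 7 of 13, with none higher.

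Against other cells of the follicle the lists ran partly differently. The upper follicle type cells had at least 2 UMIs of Krt79 and Gata6 together, at most 1 of Tbx1 and Krt75 and at least 1 of the basal keratins, and were not hair-forming (412, 717 and 766 cells). Over all genes kept, 19.9% were higher and 20% lower in members than in these cells in untreated, 30.1% and 13% in GelMA and 24.8% and 20.1% in AN-GelMA. Beside those shares, 3 of 12 outer sheath transcription factors were higher and 1 lower in untreated members (median 0.31), GelMA had 7 and 4 of 13 (0.67), and AN-GelMA had 9 and 1 of 12 (0.75). Hedgehog genes were higher for 6 of 6, 8 of 9 and 7 of 7, and mitosis genes for 15 of 15, 18 of 18 and 17 of 17. Glycolysis and hypoxia genes, lower than in other keratinocytes, were not so here. They were higher for 7 of 11, 2 of 16 and 3 of 10 and lower for 0, 3 and 0 (medians 1.03, -0.16 and 0.36). Companion layer and injury keratins did not keep 1 direction, with 2 higher and 1 lower of 3 in untreated, 0 and 2 of 4 in GelMA and 0 and 2 of 3 in AN-GelMA. Krt6a stood at 104, 1040 and 143 CPM in the upper follicle type cells and at 14.8 and 144 CPM in the hair-forming cells of untreated and GelMA, so members of those 2 libraries had more Krt6a than hair-forming cells.

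In Tbx1-only cells most Krt1 UMIs came from few cells. The Krt1 UMIs of members with Krt75 were not split in this way. Among Tbx1-only cells, 8 of 98, 25 of 572 and 13 of 123 had at least 5 Krt1 UMIs, and they held 1186 of 1205, 2492 of 2617 and 829 of 858 of the Krt1 UMIs. In GelMA these 25 cells had Krt10, the partner of Krt1 in suprabasal epidermis, at 3685 CPM beside 53.2 CPM in the other Tbx1-only cells. Of 11 suprabasal genes kept 10 were higher in them, where 26.3% of all 3007 genes kept were higher and 25.2% lower, and 8 of 9 outer sheath transcription factors were lower. Whether these were single cells or droplets with 2 cells was not tested.

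Transcripts of fibroblasts and macrophages were lower in members than in fibroblast type cells, while several other marker sums matched or exceeded those cells in 1 or more libraries. The 6 fibroblast markers summed to 502, 564 and 356 CPM, beside 25470, 20873 and 27127 CPM in fibroblast type cells, and the 7 macrophage markers to 182, 87.0 and 143 CPM beside 243, 156 and 239 CPM. Skeletal muscle markers (6 genes) summed to 86.7, 871 and 172 CPM beside 328, 1171 and 178 CPM in fibroblast type cells, with Acta1 and Ckm at 0 in untreated members. Melanocyte markers (5 genes) summed to 50.2, 471 and 25.2 CPM beside 145, 36.0 and 6.87 CPM, with Pmel, Mlana, Tyrp1 and Tyr at 0 in AN-GelMA members. Markers of sebocytes (5 genes) summed to 141, 480 and 340 CPM beside 142, 186 and 150.3 CPM, and of pericytes (5 genes) to 192, 199 and 79.7 CPM beside 157, 114 and 77.3 CPM. Markers of endothelium (5 genes) summed to 100, 67.1 and 37.7 CPM beside 132, 167 and 52.8 CPM, and of neutrophils (5 genes) to 86.7, 93 and 50.3 CPM beside 149, 57.0 and 61.8 CPM. Markers of Schwann cells (5 genes) summed to 82.1, 104 and 33.5 CPM beside 71.9, 105 and 62.3 CPM, and of adipocytes (4 genes) to 41.1, 137 and 29.4 CPM beside 47.7, 42.0 and 29.6 CPM. The muscle, pigment and adipocyte sums were highest in GelMA members, and their part in the differences between libraries was not tested. Members with at least 3 UMIs of fibroblast, macrophage, endothelial, muscle or T cell markers numbered 17, 171 and 17.

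Within the GelMA library the Krt75-only cells went against the label. They carried genes of the inner root sheath and of the hair shaft, including the medulla, at far higher levels than Tbx1-only cells, and had little Lhx2, Sfrp1 or Vdr. Tchh, which encodes trichohyalin, a protein of inner sheath and medulla granules, stood at 679 CPM in the 572 Tbx1-only cells, 3403 CPM in the 190 cells with both genes and 17547 CPM in the 238 Krt75-only cells. The Tbx1-only level was under the 1700 CPM of fibroblast type cells in that library, and hair-forming cells had 17616 CPM. Foxq1, a transcription factor needed for the medulla, stood at 11.1, 141 and 1026 CPM in the same order, beside 9.0 CPM in fibroblast type and 36.8 CPM in hair-forming cells. Krt84, a hair keratin, stood at 3.04, 55.0 and 964 CPM, and Krt26, an inner sheath keratin, at 74.0, 988 and 1671 CPM. These cells are called Krt75-only here and given no other name.

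**Figure D3:**
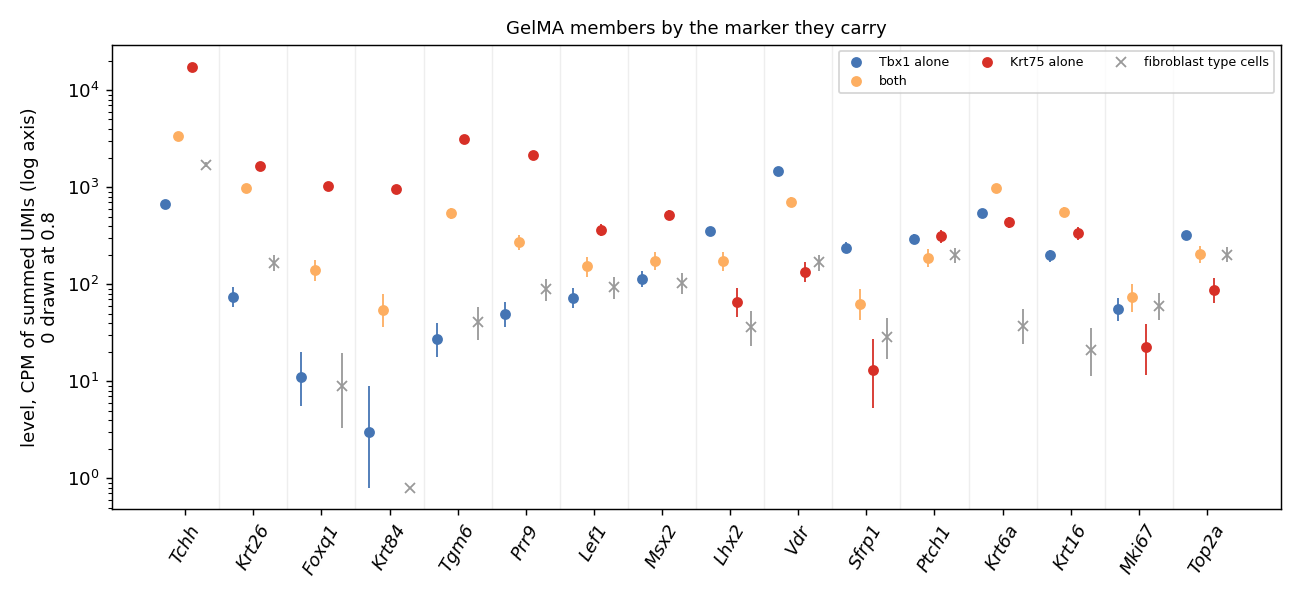
CPM (log axis) in GelMA members, split into Tbx1-only cells, cells with both genes and Krt75-only cells, with fibroblast type cells of the same library as crosses; bars are 95% counting intervals. Tchh, Krt26, Foxq1, Krt84, Tgm6 and Prr9 were highest in Krt75-only cells, and Lhx2, Vdr and Sfrp1 in Tbx1-only cells.

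The genes highest in Krt75-only over Tbx1-only GelMA cells, by the interval end nearest 1, were Crisp1, Krt84, Adh6b, Tgm6, Dsc2, Syt7, Gpnmb, Foxq1, Lyg2 and Prr9. Tgm6, a transglutaminase, stood at 3185 beside 27.4 CPM, and Foxq1 was higher by 6.52 on the log2 scale (5.67 to 7.54). Crisp1 had 248 UMIs in Krt75-only cells and 0 in Tbx1-only cells. The lowest were Col16a1, Cmah, Kirrel, Cbs, Sfrp1, Vdr, Fst, Wnt5b, Ucp2 and Chn2. Vdr stood at 135 beside 1457 CPM (log2 ratio -3.43, -3.79 to -3.09) and Fst, the activin inhibitor follistatin, at 3.75 beside 112 CPM. The split used the genes of the rule, so these values are a description.

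By list, hair matrix genes were higher in Krt75-only cells for 7 of 7 genes kept and hair shaft genes for 8 of 9, while 10 of 13 outer sheath transcription factors and 17 of 18 mitosis genes were lower. Over all 8892 genes kept, 14.7% were higher and 28.1% lower. Lef1, a Wnt effector of the hair matrix, stood at 73.0 CPM in Tbx1-only cells and 362 CPM in Krt75-only cells, and Msx2 at 114 and 521 CPM. Lhx2 stood at 355 and 65.7 CPM, and the 19 mitosis genes summed to 1651 and 615 CPM. Sox9 stood at 330 and 276 CPM, within a ratio of 1.5.

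Not all Krt75-positive GelMA cells carried much Tchh. At least 5 Tchh UMIs were present in 115 of 238 Krt75-only cells (48.3%, 41.8 to 54.9), in 30 of 190 with both genes (15.8%) and in 20 of 572 Tbx1-only cells (3.50%), and in no member of the other libraries (0 of 118 and 0 of 138). By Krt75 count, cells with 0, 1 to 9, 10 to 29 and 30 or more UMIs had Tchh at 679, 2556, 17592 and 26405 CPM and Lhx2 at 355, 136, 118 and 62.5 CPM. The Krt75-positive cells with fewer than 5 Tchh UMIs were led, over Tbx1-only cells, by Wnt11 (a Wnt ligand, 709 beside 30.4 CPM), Gpnmb, Aldh1a3 (a retinoic acid synthesis enzyme), Prnd, Liph, Bmper, Slpi, Tgm6, Uox and Edn1. In that comparison 11.7% of 9282 genes kept were higher and 14.7% lower.

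Cells with both genes lay between the other kinds of member for many genes, but exceeded both for some, among them injury keratins. All 4 companion layer and injury keratins were higher than in Tbx1-only cells (median 1.5), where 12.3% of 8715 genes kept were higher and 14.8% lower. Suprabasal and immediate early genes were each higher for 8 of 13 and lower for 1 (medians 0.64 and 0.81). The Krt75-only cells had medians of 0.14 and 0.32 over Tbx1-only cells for those lists. At least 5 Krt1 UMIs were seen in 8.42% of cells with both genes, 4.37% of Tbx1-only cells and 2.94% of Krt75-only cells. Tbx1-only cells with that many were compared with the other Tbx1-only cells. They were higher for 3 of 3 companion layer and injury keratins, 10 of 11 suprabasal genes and 5 of 6 immediate early genes. Of all 3007 genes kept there, 26.3% were higher. The part of such cells in the values of cells with both genes was not tested. Median UMIs per cell were 1450 in Tbx1-only cells, 2031 in cells with both genes and 1845 in Krt75-only cells. Krt6a stood at 538 CPM in Tbx1-only cells, 980 CPM in cells with both genes and 439 CPM in Krt75-only cells, and Krt16 at 199, 562 and 336 CPM. Wnt11 stood at 30.4, 456 and 441 CPM. The 2 genes that led the list by rank, the haemoglobin genes Hbb-bs and Hba-a2, came nearly wholly from single cells, with 135 of 135 and 76 of 77 UMIs in 1 cell.

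Since GelMA members held many Krt75-rich cells and the other libraries few, each difference between libraries is given for all members and again for Tbx1-only cells, a choice made after the data were seen. The same pair is given for other keratinocytes of those libraries, to show which differences members shared with them. Differences in the makeup of the members and in RNA per cell cannot be told apart in such sums.

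Across all genes kept, large ratios were common. In all members 16.2% of 6229 genes were at least 1.5 times higher and 15.1% lower in GelMA than in untreated, 19.4% and 16.1% of 6562 in AN-GelMA than in GelMA, and 14.8% and 11.3% of 6152 in AN-GelMA than in untreated. In Tbx1-only cells the same pairs gave 14.3% and 14%, 16.1% and 14.3%, and 14.6% and 12.1%. In other keratinocytes they gave 13.8% and 8.75%, 8.62% and 15.8%, and 3.63% and 4.58%. The small sums of untreated and AN-GelMA members (219191 and 238484 UMIs, beside 2010637 in GelMA) give wider counting intervals than those of other keratinocytes. The 3 pairs share libraries, so a low value in GelMA enters both pairs that hold it.

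**Figure D4:**
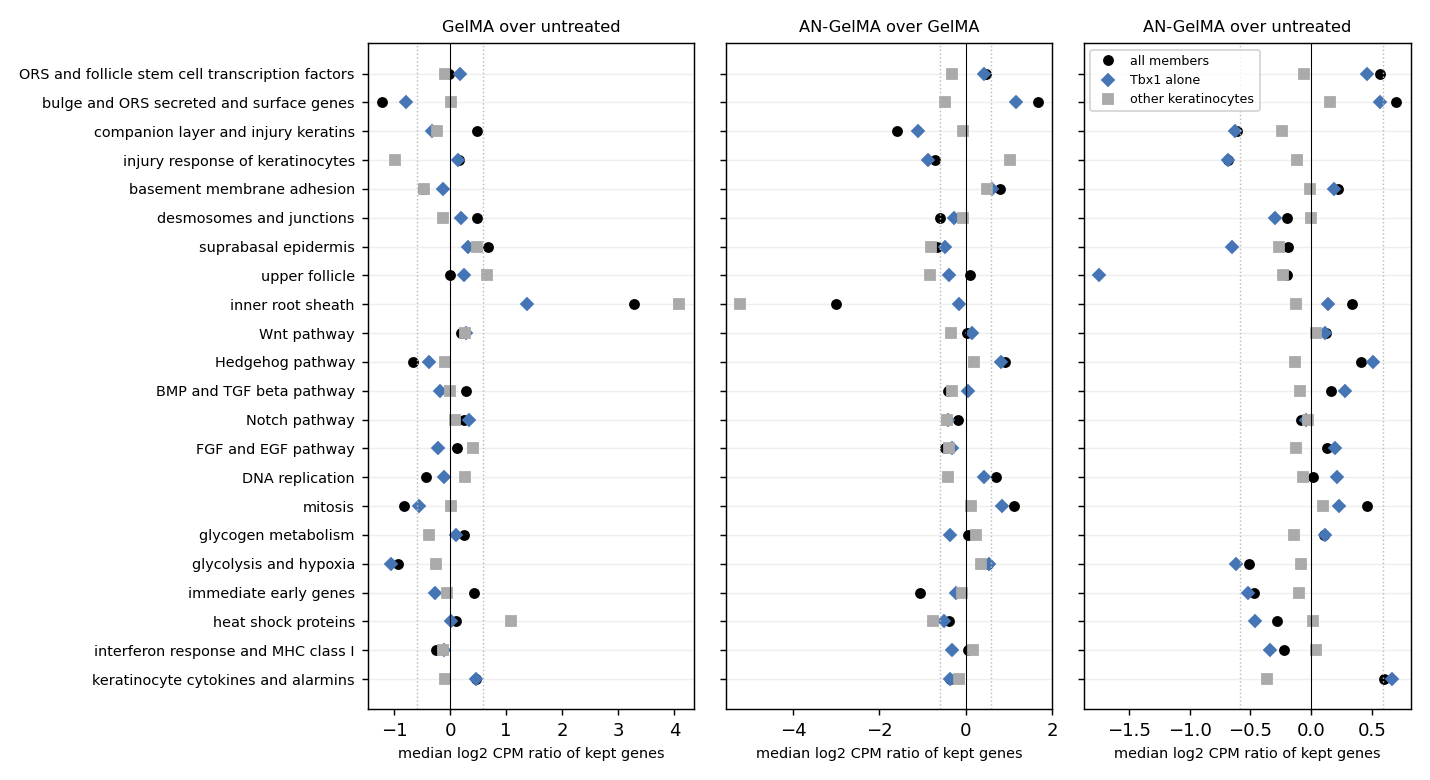
Median log2 CPM ratio of the genes kept in each fixed list, for the 3 pairs of libraries (panels, with different horizontal axes), in all members (black), Tbx1-only cells (blue) and other keratinocytes (grey); dotted lines mark a ratio of 1.5. Mitosis genes lay at -0.81 in GelMA over untreated and at 1.13 in AN-GelMA over GelMA for all members, beside 0.02 and 0.11 in other keratinocytes.

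Hair shaft, inner root sheath and hair matrix genes were far higher in GelMA members than in the others. In all members, 3 of 3 hair shaft genes, 7 of 8 inner sheath genes and 5 of 5 hair matrix genes kept were higher in GelMA than in untreated, with medians of 5.89, 3.27 and 2.70. In AN-GelMA over GelMA 3 of 3, 7 of 9 and 5 of 5 were lower, with medians of -4.63, -3.01 and -2.59. The filter used the mean of each pair, so a gene near 0 in the other library could pass through its GelMA level. That favours these directions, and only 3 of 12 hair shaft genes measured were kept. Summed without the filter, hair shaft genes stood at 82.1, 1030 and 21.0 CPM in untreated, GelMA and AN-GelMA members. Inner sheath genes stood at 616, 7797 and 683 CPM and hair matrix genes at 164, 1124 and 235 CPM. Tchh stood at 82.1, 5817 and 25.2 CPM in untreated, GelMA and AN-GelMA members. Behind it by rank in GelMA over untreated were Krt26, Tgm6, Prr9, Adh6b, Lyg2, Foxq1, Krt84, Dsc2 and Acp7, each with 0 to 4 UMIs in untreated members. In Tbx1-only cells no hair shaft gene passed the filter, and 2 of 3 inner sheath and 3 of 3 hair matrix genes were higher in GelMA than in untreated, with medians of 1.38 and 1.56. These cells had 1 of 3 inner sheath and 3 of 4 hair matrix genes lower in AN-GelMA than in GelMA (-0.16 and -1.26). Other keratinocytes had medians of 3.17, 4.09 and 3.20 in GelMA over untreated for the 3 lists, with Tchh at 108, 633 and 71.3 CPM. Fibroblast type cells had Tchh at 86.8, 1700 and 14.2 CPM. Tchh was thus highest in GelMA in all 3 kinds of cell, and the part of free RNA in this was not tested.

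Mitosis genes were lowest in GelMA members, while untreated and AN-GelMA differed less. In GelMA over untreated 0 of 18 genes kept were higher and 11 lower in all members (median -0.81), and 0 higher and 9 lower in Tbx1-only cells (-0.55). In AN-GelMA over GelMA 18 of 18 were higher in all members (1.13) and 15 of 18 in Tbx1-only cells (0.83). In AN-GelMA over untreated 8 of 18 were higher and 1 lower in all members (0.46), and 6 higher and 1 lower in Tbx1-only cells (0.23). Other keratinocytes had 2 higher and 2 lower, 0 and 0, and 1 and 0 of 18 in the same 3 pairs, so the members' pattern did not appear there.

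Top2a, a DNA topoisomerase of dividing cells, stood at 470, 230 and 549 CPM in all members and at 520, 319 and 579 CPM in Tbx1-only cells. Birc5, the survivin gene, stood at 109, 88.0 and 281 CPM in all members, and only its AN-GelMA value stood apart. At least 1 UMI of any mitosis gene was seen in 49.2%, 33.7% and 37.0% of members, and in 41.6% (30.4 to 53.4), 26.6% (23.6 to 29.7) and 45.7% (35.2 to 56.4) after each cell was thinned to 1000 UMIs (77, 824 and 92 cells deep enough). The thinned shares of untreated and AN-GelMA overlapped within counting error, and the unthinned AN-GelMA share did not follow the summed levels. In fibroblast type cells the thinned shares were 32.6%, 26.0% and 29.9%, so the GelMA members were at the fibroblast level.

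**Figure D5:**
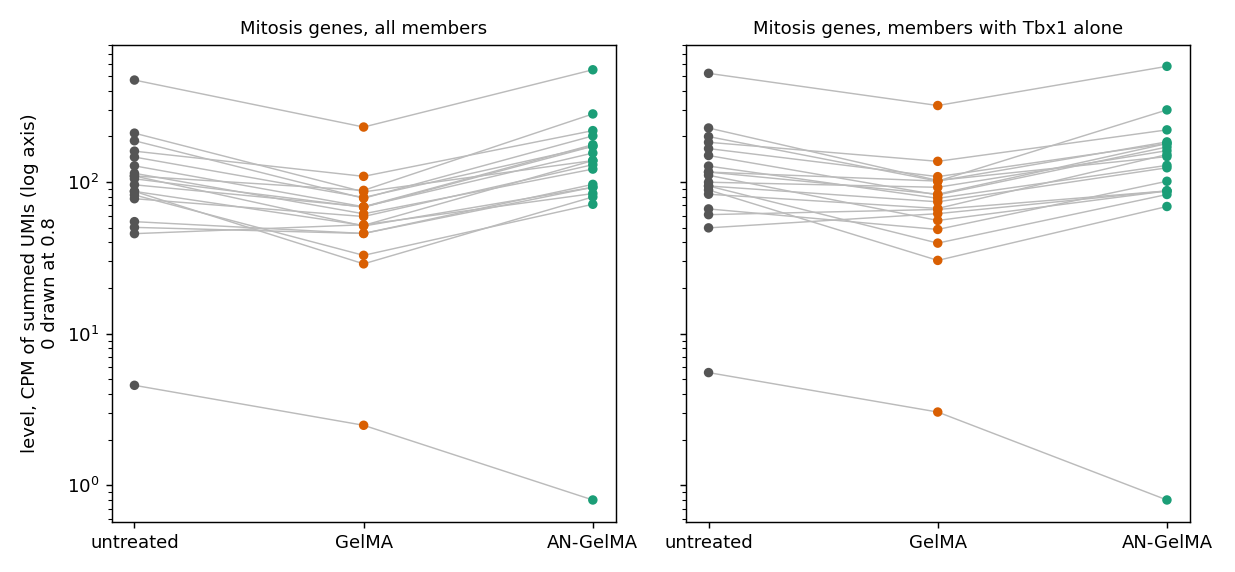
CPM (log axis, 0 drawn at 0.8) of the 19 mitosis genes in each library, for all members and for Tbx1-only cells, each line joining 1 gene. The summed level was 2322, 1308 and 2969 CPM in all members and 2557, 1651 and 3037 CPM in Tbx1-only cells of untreated, GelMA and AN-GelMA.

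Some stem cell factors, led by Lhx2, were highest in AN-GelMA members, but the list as a whole did not run 1 way in Tbx1-only cells. In all members, 5 of 11 outer sheath transcription factors kept were higher and 1 lower in AN-GelMA than in GelMA (median 0.47), and 4 higher and none lower than in untreated (0.57). In Tbx1-only cells the counts were 4 higher and 3 lower of 11 over GelMA (0.43), and 3 and 0 of 11 over untreated (0.46). In GelMA over untreated 2 were higher and 3 lower in all members (-0.02) and 3 and 2 in Tbx1-only cells (0.17). Other keratinocytes had 1 of 13 higher and 6 lower in AN-GelMA over GelMA, and 0 of 12 in either direction over untreated. In Tbx1-only cells Lhx2 stood at 315, 355 and 749 CPM, so untreated and GelMA overlapped within counting error (log2 ratio 0.17, -0.24 to 0.60) and AN-GelMA stood above both (1.25 over untreated, 0.80 to 1.71). Lhx2 had a UMI in 33.1%, 28.3% and 48.6% of members and, thinned, in 22.1%, 20.1% and 41.3%, beside 0.997%, 2.68% and 0.639% of fibroblast type cells unthinned.

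Sox9 and Barx2 ran differently from Lhx2 and peaked in GelMA. Sox9 stood at 111, 330 and 142 CPM in Tbx1-only cells and was higher by 1.58 (0.93 to 2.31) in GelMA than in untreated. Barx2, a homeobox factor of follicle keratinocytes, stood at 94.1, 457 and 239 CPM. Both were also higher in GelMA in other keratinocytes, where Sox9 stood at 56.1, 232 and 56.5 CPM and Barx2 at 97.0, 227 and 93 CPM. Nfatc1, a factor of quiescent bulge cells, stood at 199, 48.6 and 248 CPM, with the GelMA value under the 88.5 CPM of fibroblast type cells. Vdr was lowest in untreated, at 902, 1457 and 1369 CPM. Trp63, the p63 factor of basal epithelia, stayed within a ratio of 1.5, at 985, 1233 and 1199 CPM.

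Secreted and surface genes of the bulge followed Lhx2 more than Sox9. In AN-GelMA over GelMA 6 of 10 kept were higher and 2 lower in all members (median 1.66) and 7 and 2 of 10 in Tbx1-only cells (1.15). In AN-GelMA over untreated 5 and 0 of 9 (0.69) and 4 and 0 of 9 (0.56) were so. In GelMA over untreated 2 of 9 were higher and 5 lower in all members (-1.21) and 3 and 5 in Tbx1-only cells (-0.79). Summed over the list, Tbx1-only cells stood at 1467, 1574 and 2352 CPM, beside 1655, 1891 and 1594 CPM in fibroblast type cells. Krt15 stood at 387, 364 and 859 CPM in Tbx1-only cells and Sfrp1 at 188, 239 and 455 CPM. In both genes untreated and GelMA overlapped within counting error and AN-GelMA was higher. Krt15 in other keratinocytes stood at 311, 174 and 259 CPM, without that order.

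Lgr6, a receptor of R-spondins that marks stem cells above the bulge, was much lower in GelMA members. It stood at 132, 16.9 and 214 CPM in all members and at 161, 22.3 and 234 CPM in Tbx1-only cells, and was lower in GelMA than in untreated by a log2 ratio of -2.85 (-3.72 to -2.0) in the latter. Lgr6 had a UMI in 17.8%, 2.30% and 18.8% of members beside 0.820%, 0.714% and 0.426% of fibroblast type cells. In other keratinocytes it stood at 32.8, 27.3 and 33.2 CPM, so the GelMA members lay below them. Trp73, a p53 family member, followed the same order, at 287, 60.2 and 432 CPM in all members. Il31ra did so too, at 137, 18.4 and 440 CPM, with the GelMA value again under that of fibroblast type cells. Lgr5 did not, at 49.8, 82.1 and 73.5 CPM in Tbx1-only cells.

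Timp3 and Pthlh ran against the rest of the bulge list and were highest in GelMA. Timp3, an inhibitor of metalloproteases, stood at 60.9, 354 and 106 CPM in Tbx1-only cells beside 56.9, 89.2 and 53.2 CPM in other keratinocytes. Pthlh, which encodes parathyroid hormone-related protein, a signal from follicle and epidermal keratinocytes, had 2, 381 and 3 UMIs in Tbx1-only cells, or 11.1, 386 and 13.8 CPM. Its log2 ratio was 5.12 (3.26 to 8.18) in GelMA over untreated, the first by rank of all genes in Tbx1-only cells. Other keratinocytes had 112, 128 and 49.2 CPM, so only the GelMA cells exceeded them.

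Hedgehog genes were lower in GelMA members than in AN-GelMA members for most genes kept. Ptch1 stood at 476, 293 and 510 CPM in Tbx1-only cells and Gli1 at 111, 78.0 and 198 CPM. The Gli1 interval of GelMA over untreated (-1.23 to 0.28) included no difference, and that of AN-GelMA over GelMA did not (log2 ratio 1.34, 0.77 to 1.90). Over the list, 5 of 8 genes kept were higher and 1 lower in AN-GelMA than in GelMA in Tbx1-only cells (median 0.81) and in all members (0.91), beside 1 and 2 of 9 in other keratinocytes (0.19). In GelMA over untreated 1 of 8 was higher and 2 lower in Tbx1-only cells (-0.38), and 2 and 4 in all members (-0.65).

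Basement membrane adhesion genes, which anchor basal cells to the dermis, were higher in AN-GelMA than in GelMA members, and in GelMA over untreated the difference was small in Tbx1-only cells. In AN-GelMA over GelMA 7 of 11 were higher in all members (median 0.81), 6 of 11 in Tbx1-only cells (0.62) and 2 of 12 in other keratinocytes (0.49), with none lower. Compared with untreated, GelMA had 4 of 11 lower in all members (-0.48), 2 of 11 in Tbx1-only cells (-0.13) and 5 of 12 in other keratinocytes (-0.46), with none higher. Col17a1, the hemidesmosomal collagen XVII that keeps follicle stem cells in place, stood at 863, 509 and 1107 CPM in Tbx1-only cells and at 1530, 1156 and 1452 CPM in other keratinocytes. Itgb4, its integrin partner, stood at 858, 579 and 983 CPM in Tbx1-only cells.

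Glycolysis and hypoxia genes were higher in untreated than in GelMA members, with a smaller difference between untreated and AN-GelMA. In all members 7 of 11 kept were lower and none higher in GelMA than in untreated (median -0.93), and 3 of 11 lower and none higher in AN-GelMA than in untreated (-0.51). In Tbx1-only cells 7 of 10 kept were lower and 1 higher in GelMA than in untreated (median -1.05), and 6 of 11 lower and none higher in AN-GelMA than in untreated (-0.62). Slc2a1, the glucose transporter GLUT1, stood at 343, 87.2 and 188 CPM, with both treated libraries below untreated beyond counting error. Hk2, the first enzyme of glycolysis, stood at 255, 102 and 248 CPM, with AN-GelMA near untreated (log2 ratio -0.04, -0.63 to 0.56). Fibroblast type cells had Slc2a1 at 142, 30.02 and 96.6 CPM and Hk2 at 268, 93.1 and 295 CPM, lowest in GelMA as well. Other keratinocytes had medians of -0.25 and -0.08 in these 2 pairs.

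Companion layer and injury keratins were lower in AN-GelMA members than in the others for 2 of 3 genes kept, in all members and in Tbx1-only cells. Krt6a stood at 227, 538 and 147 CPM and Krt16 at 249, 199 and 91.9 CPM in Tbx1-only cells. Krt16 was lower in AN-GelMA than in untreated by a log2 ratio of -1.44 (-2.28 to -0.65), while the interval for Krt6a (-1.34 to 0.08) included no difference. Other keratinocytes had Krt16 at 759, 686 and 706 CPM, without such a difference.

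Connexins stood out among the junction genes. Gja1 (connexin 43) stood at 177, 1461 and 248 CPM and Gjb2 (connexin 26) at 149, 788 and 73.5 CPM in Tbx1-only cells. Gja1 was higher in GelMA in other keratinocytes too, at 230, 627 and 270 CPM, while Gjb2 stayed within a ratio of 1.5 there, at 611, 540 and 545 CPM. Fibroblast type cells had Gja1 at 167, 393 and 146 CPM and Gjb2 at 19.2, 147 and 13.3 CPM. The desmosomal cadherin Dsg3 stayed within a ratio of 1.5 in Tbx1-only cells, at 293, 274 and 239 CPM. In GelMA over untreated, 4 of 12 junction genes kept were higher and 1 lower in these cells (median 0.19), and 6 of 14 higher and none lower in all members (0.48).

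The genes named by rank for GelMA over untreated in Tbx1-only cells were, after Pthlh, Tnnt3, Fads3, Kalrn, Mybpc1, Gja1, Cpm, Slc1a3, Fhl1 and Lor on the high side. Kalrn, a guanine nucleotide exchange factor, stood at 116 and 1188 CPM, beside 200.04 and 197 CPM in fibroblast type cells. Tnnt3 and Mybpc1 are muscle genes, and their GelMA levels of 576 and 122 CPM lay near the 650 and 107 CPM of fibroblast type cells. On the low side were Mmp19, Vwa2, Prxl2a, Lgr6, Moxd1, Cyp4b1, Neurl1b, Il31ra, Postn and Trp73. Moxd1, a copper monooxygenase family member, stood at 282, 47.6 and 358 CPM in untreated, GelMA and AN-GelMA. Postn, a matrix protein of fibroblasts and bulge, lay under the fibroblast type level in each library.

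In AN-GelMA over GelMA the genes named by rank in Tbx1-only cells were Krt24, Nrcam, Tgm5, Il31ra, Vwa2, Lgr6, Cyp4b1, Moxd1, Ccdc3 and Sms on the high side. Krt24, a keratin of differentiating cells, had 21 UMIs in AN-GelMA and 1 in GelMA (log2 ratio 6.57, 3.94 to 11.94), although the GelMA sum was larger. On the low side were Tchh, Pthlh, Cmah, Ggt1, Fads3, Slc7a8, Lrrc75b, Cpm, Gjb2 and Adamts20. Adamts20 stood at 408 CPM in GelMA and 32.2 CPM in AN-GelMA, beside 51.0 and 13.7 CPM in fibroblast type cells.

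The genes highest by rank in AN-GelMA over untreated Tbx1-only cells were Lor, Flg, Esyt3, Scd1, Tgm5, Cpa4, Il31ra, Cyb5r3, Nrcam and Hddc3. Tgm5, a transglutaminase, stood at 127, 29.4 and 515 CPM in Tbx1-only cells and was higher in AN-GelMA than in untreated by 2.02 (1.36 to 2.73). Flg and Lor, the cornified layer genes filaggrin and loricrin, stood at 836 and 3166 CPM and at 72.0 and 496 CPM in untreated and AN-GelMA. The untreated values of both lay under the 984 and 127 CPM of fibroblast type cells there. The genes lowest in AN-GelMA were Klk10, Mmp19, Tagln, Cst6, Fhl3, Fam43a, Hs6st1, Uap1, Krt10 and Tmprss4. The 8 untreated and 13 AN-GelMA Tbx1-only cells with at least 5 Krt1 UMIs held 98 and 42 Krt10 UMIs. How far such cells set the rank of Krt10 was not tested. Klk10 and Cst6, a kallikrein and a cystatin of the upper follicle list, had 23 and 34 UMIs in untreated and 0 and 4 in AN-GelMA.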

How the data were processed

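The deposited files hold UMI counts per gene and cell, written by Cell Ranger (version 10.0.0, per the file headers). Builds GRCm39 and mm39 are named in the submitters' processing notes. UMIs were summed over cells by library and scaled to CPM here. Ratios carry exact conditional 95% intervals and no test, since each group has 1 library. Genes needed 10 expected UMIs in the smaller sum, 0 counts were taken as 3 UMIs, and a ratio of 1.5 counted as a difference. Genes of the rule, mitochondrial genes and symbols carried by several features were left out. Named genes were the 10 highest and 10 lowest by the interval end nearest 1, the 20 leading genes over other keratinocytes, and for each list the 4 with most UMIs and those whose interval passed 1.5. Barx2, Dsg3, Gjb2, Lgr5 and the other single list genes outside that rule, the Tchh and Krt1 splits and the Tbx1-only comparison were chosen after their values were seen. Members and lists were chosen with earlier results of these data known. No doublet caller was run: mixed barcodes, and the 5% of barcodes with most UMIs, were left out as alternatives. The other alternatives changed the marker minimum, depth, low-count filter, scaling, free RNA filter and weighting. The comparisons were also run on simulated sums, drawn from a Poisson distribution without differences between cells. Such sums cannot show how the intervals hold where few cells carry most UMIs of a gene. Python 3.11.15, numpy 2.4.6, pandas 2.3.3, scipy 1.17.1 and matplotlib 3.10.9 were used.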

Additional observations from a re-analysis of the deposited data

How the results depend on the processing

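No paired analysis was possible because a single library stands for each group. The order of the 3 libraries in the share of members (1.95%, 8.85% and 1.44%) was the same under every alternative run. The shares were 1.19%, 5.93% and 0.832% with at least 3 UMIs of Tbx1 and Krt75, 0.811%, 4.45% and 0.541% with at least 4, 0.166%, 1.68% and 0.0728% with 1 UMI of each gene, 1.19%, 6.36% and 0.861% in thinned cells, and 5.25%, 15.7% and 3.47% of keratin-positive cells. For GelMA alone they also moved to 7.33% without mixed barcodes, 5.06% with Tbx1-only cells and 7.39% without cells of 5 or more Tchh UMIs. Counts of genes moved more. In GelMA over untreated (1006 higher, 941 lower) they were 302 and 468 in thinned cells, 1569 and 1568 with 5 expected UMIs, 259 and 209 with 30, and 115 and 61 when genes with over 0.2 of the member level in fibroblast type cells were left out; 647 were higher with at least 3 marker UMIs and 662 without mixed barcodes. In AN-GelMA over GelMA (1275 and 1056) they were 593 and 433 in thinned cells, 387 and 310 with 30 expected UMIs, 90 and 148 under the free RNA filter, and 1649 lower with 5. In AN-GelMA over untreated (911 and 697) they were 302 and 345, 1394 and 1328 with 5, 184 and 103 with 30, 83 and 50 under the free RNA filter, and 467 higher without mixed barcodes. List medians reversed in 3 cases: bulge and outer sheath secreted genes in GelMA over untreated (-1.21) in thinned cells, at 1.03 over 5 genes, and keratinocyte cytokines in AN-GelMA over untreated (0.60) with at least 3 marker UMIs, at -0.83 over 4 genes, and under the free RNA filter, at -2.86 for 1 gene; fewer genes were kept in each. Of the other list medians 608 kept their value within the limit of 1.5 and 56 moved by more, while 522 ratios of named genes stayed within their interval, 52 moved and none reversed. Depth limits single genes: 1 UMI was worth 4.56, 0.497 and 4.19 CPM in members.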

Other observations

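Some further genes of the lists differed between libraries in the same cells. Egr1, an immediate early gene, stood at 33.2, 283 and 45.9 CPM in Tbx1-only cells of untreated, GelMA and AN-GelMA, beside 52.5, 143 and 55.3 CPM in other keratinocytes, and Id1, a target of bone morphogenetic protein signalling, at 22.1, 124 and 27.6 CPM beside 101, 155 and 66.4 CPM. Cxcl14, a chemokine made by skin epithelium, stood at 194, 624 and 202 CPM beside 153, 143 and 119 CPM. Fst stood at 404, 112 and 216 CPM, so it was highest in untreated members, beside 188, 83.9 and 140 CPM in other keratinocytes. Heat shock genes were higher in GelMA than in untreated for 8 of 10 kept in other keratinocytes and for 0 of 4 kept in Tbx1-only cells. Over all genes kept 13.8% and 14.3% were higher. Fewer genes passed the filter in the smaller Tbx1-only sums, so these counts do not cover the same genes and were not compared.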
